A study of Nicotiana tabacum with 6 samples.

Results

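Steady transcripts were described in tobacco BY-2 cells, a dark-grown suspension culture derived from the Nicotiana tabacum cultivar Bright Yellow 2, with and without induction of an Arabidopsis auxin carrier. The members were selected on the deposited TPM values (a transcript level corrected for effective length and library size, with the same sum in every library): a Nitab4.5 gene model had to lie between 20 and 300 TPM in each of the 6 libraries, with a highest over lowest TPM of at most 1.25. This rule found 107 gene models among 69491. Of the 3787 gene models at 20 to 300 TPM in every library, 3680 were past the ratio limit. Because these TPM values chose the members, the levels and ratios below are a description and carry no test.

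All 6 libraries came from 1 stable transgenic line with AtPIN5, the Arabidopsis PIN5 coding gene, under estradiol control, grown in Murashige and Skoog medium with sucrose and the synthetic auxin 2,4-D. The induced group (EST, 3 libraries) had received 1 µM β-estradiol in DMSO for 48 h, and the control group (DMSO, 3 libraries) the solvent alone for 48 h. Both were harvested 2 days into a subculture interval of 7 days. EST 1 and the 3 DMSO libraries were sequenced by Novogene, and EST 2 and 3 by IAB, so company and treatment are partly confounded. A line without the transgene was not analysed here, so an effect of estradiol itself cannot be told apart from one of AtPIN5.

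PIN5 is an auxin carrier of the endoplasmic reticulum, where it moves auxin between the cytosol and the lumen. Reference transcripts serve as the internal standard when the level of another transcript is measured, for example by quantitative PCR: the target is divided by the reference, so any movement of the reference appears as a false movement of the target. A good reference is therefore steady across treatments and batches, abundant enough to be counted precisely, and read from sequence that no other gene copy shares. Classic plant references include actin, tubulin, ubiquitin and elongation factor genes. Gene names are not paired with the identifiers in the files, and 0 of 69491 identifiers matched the tobacco gene table at hand, so the members are given by identifier and neither the classic families nor cell type markers could be looked up.

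AtPIN5 itself stood at 24.0, 95.4 and 341 TPM in EST 1, 2 and 3, against 1.51, 0.387 and 0.942 TPM in DMSO 1, 2 and 3. The geometric mean level of the 107 steady gene models in the same libraries was 45.5, 46.0 and 47.0 TPM in EST 1, 2 and 3, against 47.6, 46.6 and 46.8 TPM in DMSO 1, 2 and 3. Divided by it, the transgene was 0.527, 2.07 and 7.26 times the level of the steady panel in the EST libraries, and 0.0318, 0.00829 and 0.0201 times in the DMSO libraries. All EST values lay above all DMSO values. With company as a covariate the treatment term sets 1 induced library, EST 1, against the 3 DMSO libraries, because both IAB libraries are induced; the spread comes from the other libraries, and EST 1 is assumed to vary like them. In that fit the log2 difference of AtPIN5 was 4.87 ± 0.75 (SE), with an adjusted p of 0.0106 in edgeR's quasi-likelihood test. In the fit without company it rose by 7.43 ± 1.11 (SE) with an adjusted p of 0.0129, which was lost without DMSO 2 (0.0755) and without DMSO 3 (0.0791).

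The libraries held 11776234 to 17281241 estimated reads, and the steady gene models together took 0.827% to 0.942% of them. DMSO 2 and DMSO 3 lay close together: over 8296 gene models with whole-number estimates, their variance was 1.75 times that of sampling noise, whereas EST 2 and 3 differed at 11.1 times sampling noise (8613 gene models), and DMSO 1 differed from DMSO 2 at 10.5 times it (9019 gene models). The median TPM ratio between DMSO 2 and 3 was 1.04 for the members and 1.05 for all gene models of the window, whereas between EST 2 and 3 it was 1.07 for the members and 1.16 for the window. In bulk RNA a steady TPM is a steady share of the sequenced RNA, and fewer cells of a type and less RNA per cell cannot be told apart.

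Steady gene models were rare and sat at the narrow end of a broad distribution. The median ratio of highest to lowest TPM was 1.21 among the members, with a range of 1.10 to 1.25, and 2.00 over all 3787 gene models of the same TPM window, whose highest ratio was 11.9. Only 2 members stayed within a ratio of 1.1, and 48 within 1.2. The coefficient of variation of TPM across the 6 libraries ran from 3.46% to 9.83% among the members, with a median of 7.21%, against a median of 26.0% over the window.

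**Figure D1:**
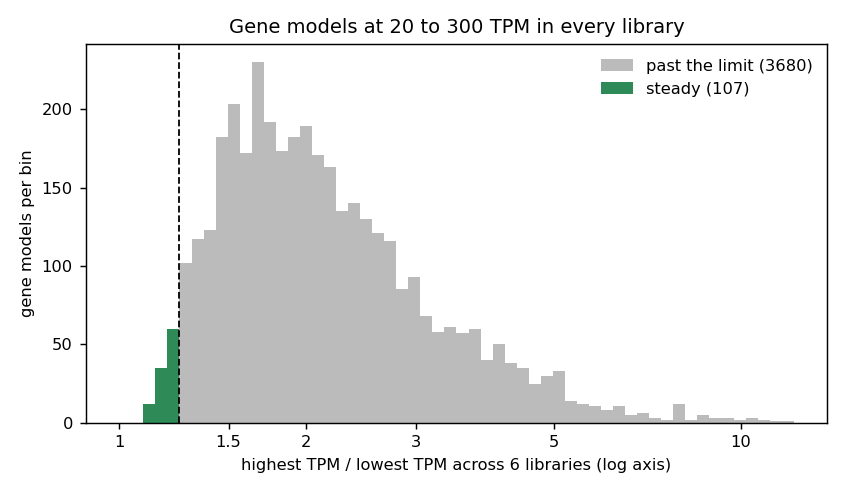
Number of gene models (y axis) by the ratio of highest to lowest TPM across the 6 libraries (x axis, log scale), for the 3787 gene models at 20 to 300 TPM in every library. The 107 steady ones (green) lie left of the dashed limit of 1.25, and the bulk of the 3680 others (grey) lies near a ratio of 2.00.

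The member with the lowest ratio was Nitab4.5_0000293g0030.1, a gene model of 2044 bases. Its level was 160, 162 and 168 TPM in EST 1, 2 and 3, against 174, 160 and 158 TPM in DMSO 1, 2 and 3. The groups overlapped, and their means of 164 ± 4 TPM in EST and 164 ± 9 TPM in DMSO (SD, n = 3 each) differed by less than the spread within either group. It had at least 3661 reads in every library, so that counting error was small.

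Nitab4.5_0001308g0140.1, with 1107 bases, stood at 30.7, 32.0 and 29.1 TPM in EST 1, 2 and 3, against 30.4, 31.0 and 29.4 TPM in DMSO 1, 2 and 3. Nitab4.5_0003875g0030.1, with 1524 bases, stood at 33.8, 34.7 and 36.2 TPM in the EST libraries, against 35.8, 33.3 and 32.7 TPM in the DMSO libraries. The groups overlapped in both. The highest library of the first was EST 2 and its lowest EST 3, both induced and both from IAB; the highest of the second was EST 3 and its lowest DMSO 3.

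Nitab4.5_0004969g0090.1 (1470 bases) had 32.3, 34.4 and 34.1 TPM in EST 1, 2 and 3, against 31.2, 33.0 and 30.7 TPM in DMSO 1, 2 and 3. Nitab4.5_0003344g0010.1 (1429 bases) had 52.5, 50.5 and 53.2 TPM in the EST libraries, against 51.2, 47.5 and 50.8 TPM in the DMSO libraries. Nitab4.5_0004861g0010.1 (1177 bases) had 43.3, 41.6 and 40.8 TPM in the EST libraries, against 45.6, 42.4 and 40.5 TPM in the DMSO libraries. The groups overlapped in each of these 3 gene models, and the ratio of highest to lowest TPM was 1.12 for each of them.

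**Figure D2:**
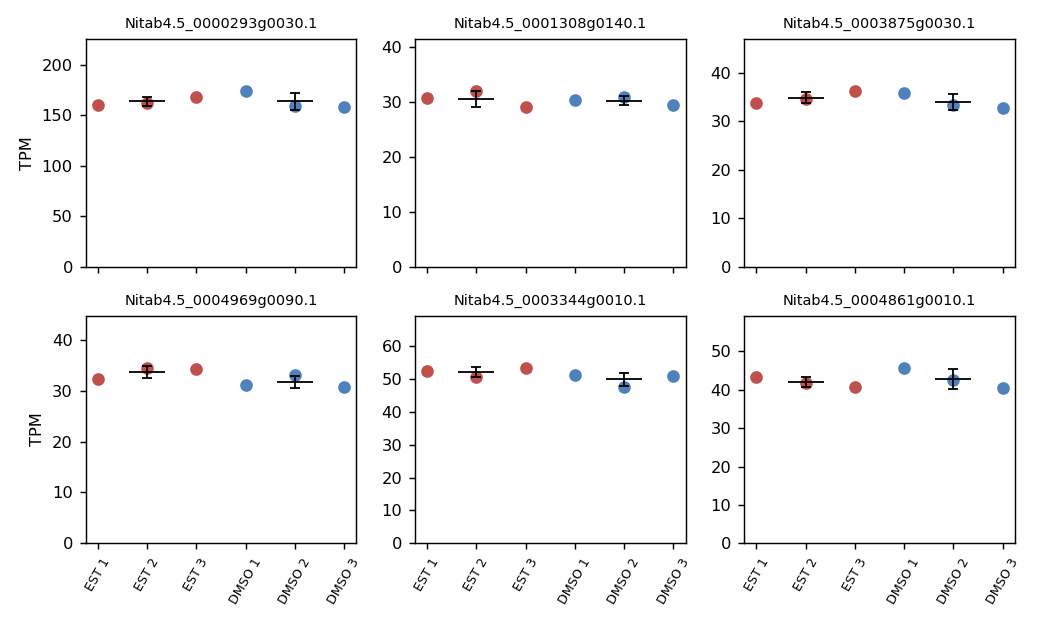
TPM (y axis, from 0) in each library (x axis) of the 6 gene models with the lowest ratio of highest to lowest TPM; red points are EST and blue points DMSO libraries, and black bars give the group mean and SD (n = 3). In each panel the EST and DMSO points overlap, and the levels range from about 30.4 TPM on average (Nitab4.5_0001308g0140.1) to 164 TPM (Nitab4.5_0000293g0030.1).

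The members covered the whole TPM window but were mostly of moderate level. Their mean level ran from 21.8 to 270 TPM with a median of 39.8 TPM, against a median of 58.8 TPM over the window. There were 69 members at a mean of 20 to 50 TPM (4.62% of the 1494 gene models of that class), 25 at 50 to 100 TPM (1.73% of 1447) and 13 at 100 to 300 TPM (1.54% of 846). A gene model with a mean near 20 TPM stays in the window only if it varies little, so the window itself raises the first of these shares. Without the window, a ratio of at most 1.25 was found for 55 of 3124 gene models (1.76%) at a mean of 25 to 50 TPM, for 25 of 1688 (1.48%) at 50 to 100 TPM and for 9 of 862 (1.04%) at 100 to 200 TPM. On this count the share of steady gene models was between 1.04% and 1.76% in every class.

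The highest member, Nitab4.5_0001217g0060.1 (1112 bases), stood at 254, 256 and 267 TPM in EST 1, 2 and 3, against 290, 278 and 277 TPM in DMSO 1, 2 and 3. Here every EST library lay below every DMSO library, by little: the group means were 259 ± 7 TPM in EST and 281 ± 7 TPM in DMSO (SD, n = 3 each). The lowest member, Nitab4.5_0001939g0060.1 (1134 bases), stood at 21.4, 24.2 and 23.9 TPM in the EST libraries, against 20.2, 20.1 and 21.1 TPM in the DMSO libraries, and every EST library lay above every DMSO library. The next lowest were Nitab4.5_0001059g0050.1 with a mean of 21.9 TPM and a coefficient of variation of 9.83%, and Nitab4.5_0000231g0420.1 with a mean of 22.2 TPM and one of 5.87%.

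In some members the EST and DMSO libraries were thus fully separated within the limit. Of the 107 members, 4 had all EST libraries above all DMSO libraries, where the share over the window was 16.2%, and 13 had all EST libraries below all DMSO libraries, where the share over the window was 21.4%. The rule used these same libraries, and nothing is read from the lower shares of the members. The ratio of the EST mean to the DMSO mean TPM had a median of 0.976 and ran from 0.863 to 1.15. It was within 5% of equality for 53 members and within 10% for 93.

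DMSO 1 was most often the highest library of a member and EST 2 or EST 1 most often the lowest. The highest library was EST 1, 2 or 3 for 9, 18 and 23 members, and DMSO 1, 2 or 3 for 29, 14 and 14 members. The lowest was EST 1, 2 or 3 for 25, 27 and 16 members, and DMSO 1, 2 or 3 for 11, 14 and 14. The median member stood at 0.973, 0.981 and 1.02 times its own mean in EST 1, 2 and 3, and at 1.02, 0.998 and 1.00 times it in DMSO 1, 2 and 3. Over the window the same medians were 0.933, 0.970 and 1.00 in EST 1, 2 and 3, and 1.04, 0.963 and 0.968 in DMSO 1, 2 and 3.

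**Figure D3:**
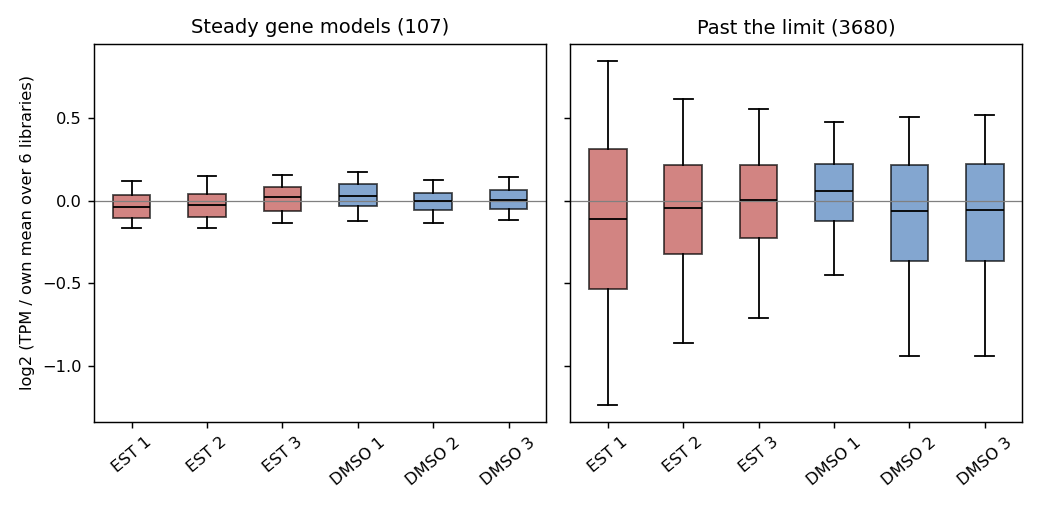
Log2 of TPM over a gene model's own mean across the 6 libraries (y axis) in each library (x axis; EST red, DMSO blue), for the 107 steady gene models (left) and the 3680 others of the window (right); boxes give the quartiles, lines the median and whiskers the 5th to 95th percentile. The steady boxes stay close to 0 in every library, and among the others the EST 1 box is the widest.

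The 2 gene models just inside the limit and the 2 just outside it showed how little separates them. Nitab4.5_0009325g0020.1 was a member with 24.4, 21.9 and 20.3 TPM in EST 1, 2 and 3, against 23.4, 22.2 and 25.3 TPM in DMSO 1, 2 and 3. Nitab4.5_0005128g0040.1 was a member with 114, 101 and 111 TPM in the EST libraries, against 126, 110 and 116 TPM in the DMSO libraries. In both the groups overlapped. Nitab4.5_0004967g0020.1, with a ratio just past the limit, had 39.6, 35.8 and 37.2 TPM in the EST libraries, against 44.4, 44.8 and 41.6 TPM in the DMSO libraries, with no overlap. Nitab4.5_0001728g0070.1, also just outside, had 77.5, 71.2 and 65.4 TPM in the EST libraries, against 65.8, 63.3 and 61.9 TPM in the DMSO libraries, and the groups overlapped through EST 3 and DMSO 1.

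Length was not part of the rule. The members had a median length of 1296 bases, with quartiles of 1074 and 1652 bases, against a median of 1020 bases and quartiles of 711 and 1510 over the window, and a median of 901 bases over all gene models. Short gene models were few among the members: 2 of the 450 in the window under 500 bases (0.444%) and 20 of 1387 at 500 to 999 bases (1.44%), against 47 of 990 at 1000 to 1499 bases (4.75%), 25 of 582 at 1500 to 1999 bases (4.30%) and 13 of 378 at 2000 bases and over (3.44%). These shares are over gene models, which are not replicates, and no test was made.

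The members were longer than the window in each class of level. At 20 to 50 TPM their median length was 1285 bases, against 1125 over the window. At 50 to 100 TPM it was 1429 bases, against 1002, and at 100 to 300 TPM it was 1211 bases, against 901. Depth goes with length at a given TPM, so both were set side by side: the median of the mean reads per library was 816 for the members and 929 over the window. Members made up 0.551% of the window's 363 gene models under 250 mean reads, 2.94% of 477 at 250 to 499, 4.20% of 1191 at 500 to 999, 1.87% of 1123 at 1000 to 1999 and 3.16% of 633 at 2000 reads and over. The share was lowest where reads were fewest and did not follow depth above that; the part of read depth in the length pattern was not tested.

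The longest member was Nitab4.5_0000100g0230.1 with 3205 bases, at 32.3, 33.1 and 34.0 TPM in EST 1, 2 and 3, against 35.4, 37.5 and 39.3 TPM in DMSO 1, 2 and 3. Its EST libraries all lay below its DMSO libraries. The shortest was Nitab4.5_0000413g0050.1 with 234 bases, at 226, 231 and 218 TPM in the EST libraries, against 212, 254 and 204 TPM in the DMSO libraries, and the groups overlapped. It had few reads for its TPM, 140, 420 and 327 in EST 1, 2 and 3, against 219, 154 and 157 in DMSO 1, 2 and 3. Its effective length was 29, 76 and 72 bases in the EST libraries, against 35, 27 and 30 in the DMSO libraries. The other member under 500 bases, Nitab4.5_0000083g0160.1 with 321 bases, stood at 235, 246 and 232 TPM in the EST libraries, against 239, 224 and 215 TPM in the DMSO libraries.

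The reads behind the members differed widely in number. The lowest library of a member held between 140 and 3661 reads, with a median of 622, and 2 members had fewer than 200 reads in their lowest library. Given each library's effective length and scale, the reads of a member varied at a median of 4.22 times Poisson counting noise, from 0.675 to 30.3 times, against a median of 55.2 times over the window. This variation is measured from a constant TPM, on which the rule chose the members, so their lower median follows from the rule. For 4 members the variation was below counting noise. Such values cover counting error only.

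The 107 members were then set against each other, because a ratio of 2 transcripts within a library does not depend on how the library is scaled. For each member the SD across the 6 libraries of its log2 TPM ratio to another member was averaged over the other 106 members, a stability measure used for reference genes in quantitative PCR. It had a median of 0.133 and ran from 0.102 for Nitab4.5_0000293g0030.1 to 0.175 for Nitab4.5_0001059g0050.1. Set against the same 107 partners, the 3680 gene models past the limit had a median of 0.403 and a lowest value of 0.130. The same TPM values chose the members, so their lower median follows from the rule and nothing is read from it. On CPM (reads scaled to library size with no length correction) the median of the members was 0.204.

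TPM steadiness was not read steadiness. On CPM only 36 of the 107 members stayed within a ratio of 1.25, and the median ratio was 1.31 with a highest value of 2.35, for the shortest member. Nitab4.5_0000413g0050.1 had 11.9, 24.3 and 22.0 CPM in EST 1, 2 and 3, against 13.3, 11.7 and 10.4 CPM in DMSO 1, 2 and 3: both IAB libraries lay above all Novogene libraries. Nitab4.5_0000083g0160.1 likewise had 33.7, 57.4 and 58.7 CPM in the EST libraries, against 36.3, 28.9 and 28.9 CPM in the DMSO libraries.

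The scales differ by the effective length that the authors' quantification gave to each library. Its median over the members was 59.4%, 75.8% and 75.7% of the full length in EST 1, 2 and 3, against 61.7%, 63.4% and 63.3% in DMSO 1, 2 and 3. For 99 of the 107 members it was longer in both IAB libraries than in every Novogene library, and for 67 it was shorter in EST 1 than in every DMSO library. By length, 5 of the 22 members under 1000 bases stayed within 1.25 on CPM, as did 23 of the 47 with 1000 to 1499 bases and 8 of the 38 with 1500 bases and over.

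Nitab4.5_0000501g0010.1, chosen after its values were seen as the long member with the widest CPM range, showed the extent. Its level was 112, 108 and 134 TPM in EST 1, 2 and 3, against 120, 122 and 128 TPM in DMSO 1, 2 and 3. Its reads were 112, 196 and 247 CPM in the EST libraries, against 162, 227 and 234 CPM in the DMSO libraries. The effective length of this gene model of 1618 bases was 551, 1310 and 1317 bases in the EST libraries, against 752, 1082 and 1080 bases in the DMSO libraries. It was shortest in EST 1, where the CPM was lowest, and longest in EST 3, where the CPM was highest. A steady TPM requires reads that follow the effective length, so this match follows from the choice. The match was partial, as EST 2 had a longer effective length than DMSO 2 and 3 but a lower CPM. Which scale is nearer to the RNA in the cells was not tested.

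**Figure D4:**
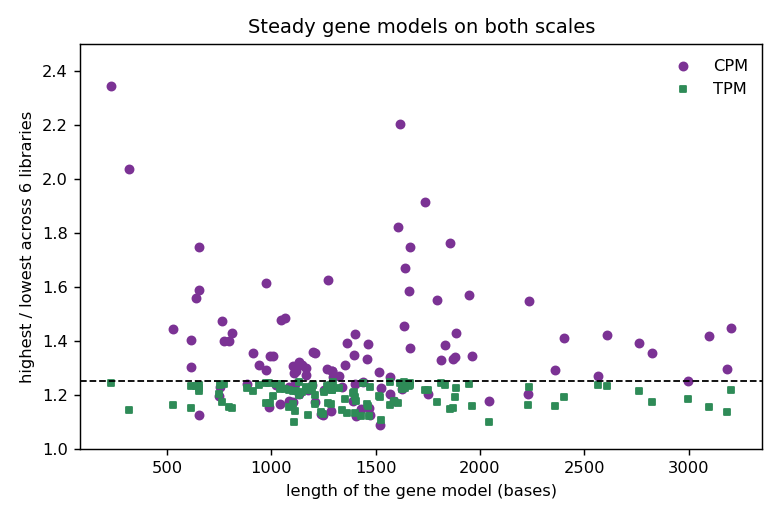
Ratio of the highest to the lowest value across the 6 libraries (y axis) by length in bases (x axis) for each of the 107 steady gene models, on TPM (green squares) and on reads scaled to library size (CPM, purple circles); the dashed line is the limit of 1.25. Only 36 circles lie within the limit, and the highest, at 2.35, belongs to the shortest gene model.

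Rescaling TPM between libraries changed less. With TMM factors (edgeR's trimmed mean scaling) 89 of 107 members stayed within 1.25, and with the size factors of DESeq2 90 did. A set of 85 stayed within it on both, and 28 also on CPM. Of the 6 members with the lowest TPM ratio, 5 were also within 1.25 on CPM, and Nitab4.5_0001308g0140.1, at a CPM ratio of 1.28, was not.

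Across all genes the counts were tested with edgeR's quasi-likelihood test, and no member was called in any of the 3 comparisons. Only the pooled comparison has 3 libraries on each side: with company as a covariate EST 1 alone is set against the DMSO libraries, and the company term sets EST 2 and 3 against EST 1 alone. With company as a covariate, 0 of 107 members passed an adjusted p of 0.05, where 24.6% of 33956 tested entries did. In the pooled comparison of EST with DMSO 0 passed, where 11.1% of entries did. For company, IAB over Novogene, 0 passed, where 4.15% did. DESeq2 also called 0 members in each comparison, where it called 29.8%, 20.9% and 12.0% of entries in that order. At an unadjusted p under 0.05 in edgeR there were 5, 1 and 6 members, where 14359, 10128 and 9414 of the 33956 entries were. Since the rule used the same libraries, nothing is read from these counts.

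A member that is not called is not shown to be unchanged. The standard error of a member's log2 difference had a median of 0.239 with company as a covariate, 0.206 in the pooled comparison and 0.252 for company. The members' median log2 difference was −0.11 with company as a covariate (range −0.89 to 0.50), −0.10 in the pooled comparison (−0.42 to 0.68) and 0.00 for company (−0.67 to 0.93); the medians of all tested entries were −0.03, −0.01 and 0.03. The 6 members beyond 1.5-fold with company as a covariate measured 1609 to 1857 bases. All had lower counts, not corrected for length, in EST 1 than in the DMSO libraries, a difference that speaks for EST 1 only. In TPM their EST 1 level was between 0.839 (Nitab4.5_0002629g0050.1) and 1.01 (Nitab4.5_0000484g0010.1) times the DMSO mean. Their effective length was shortest in EST 1. None of the 6 passed the test. With the effective lengths as an offset, the median size of the members' log2 difference fell. With company as a covariate it was 0.090, against 0.182 without the offset. For company it was 0.086, against 0.159, and in the pooled comparison 0.108, against 0.134. The members were chosen for steady TPM, which is corrected for effective length, so a fall follows from the choice.

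With company in the fit, the count of 0 rested on DMSO 1. Without it, 14 of 107 members were called with company as a covariate in edgeR's test, 2 higher and 12 lower in EST 1, where 46.5% of entries were, and 8 were called for company, 6 higher and 2 lower in EST 2 and 3 than in EST 1, where 24.2% of entries were. Without EST 1, the pooled comparison called 2 members, both higher in EST, where 19.3% of entries were called. All EST libraries of that fit came from IAB and all DMSO libraries from Novogene, so treatment and company cannot be told apart in it. The fits without DMSO 1 take the control spread from DMSO 2 and 3, which lie close together.

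All 6 libraries chose the 107 members, so none is left to check the members themselves. How the rule carries over to a library not used in the choice was read by leaving each library out in turn. The lists so chosen are longer, each contains the 107, and the criterion in the library left out is looser than the rule. Gene models were chosen by the same rule in 5 libraries, and the library left out was then compared with their mean. With EST 1 left out, 400 gene models were chosen, and 173 of them (43.2%) lay within 1.25-fold of that mean in EST 1, against 29.2% of all 4489 gene models at 20 to 300 TPM in the same 5 libraries. The chosen gene models were lower in EST 1 in the median, at 0.824 times the mean of the other libraries, as were all gene models of the window, at 0.841 times.

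The share within 1.25-fold of the mean was higher in the other EST libraries. For each of them, however, the partner library of the same treatment and company had taken part in the choice. EST 1 had no such partner, so its share is not comparable with theirs. The share was 72.4% of 196 chosen gene models in EST 2, against 49.0% of all in the window, and 81.2% of 181 in EST 3, against 57.3%. It was 77.4% of 199 in DMSO 1, against 66.8%. It was 96.3% of 134 in DMSO 2, against 48.6%, and 94.2% of 138 in DMSO 3, against 48.4%, but in both cases the closely similar partner library had taken part in the choice. In every library the chosen gene models were within the limit more often than the window as a whole, a description over gene models with no test. By the rule itself fewer stayed steady in all 6 libraries, namely the 107 members. They made up 26.8%, 54.6% and 59.1% of those chosen without EST 1, 2 and 3. Without DMSO 1, 2 and 3 they made up 53.8%, 79.9% and 77.5%.

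Gene models chosen within 1 treatment or 1 company were read in several held-out libraries at once, a stricter criterion whose shares are not comparable with those for a single library. Of 2369 gene models that met the rule in the 3 DMSO libraries alone, 267 (11.3%) lay within 1.25-fold of the DMSO mean in all 3 EST libraries, against 7.53% of the 5633 gene models at 20 to 300 TPM in the DMSO libraries. Of 972 that met the rule in the EST libraries alone, 229 (23.6%) lay within 1.25-fold of the EST mean in all 3 DMSO libraries. For the 5063 gene models of that window the share was 16.5%. Of 563 that met the rule in the 4 Novogene libraries, 200 (35.5%) lay within 1.25-fold of the Novogene mean in both IAB libraries. For the 4318 gene models of that window the share was 29.8%. Treatment and company are partly confounded in these divisions and cannot be told apart.

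**Figure D5:**
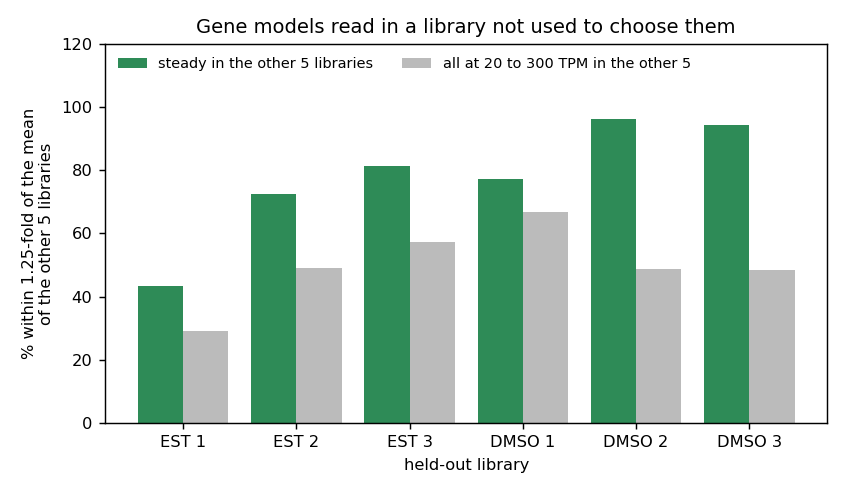
Percentage of gene models (y axis, from 0) within 1.25-fold of the mean of the other 5 libraries, in the library left out (x axis), for gene models that met the steadiness rule in the other 5 (green) and for all at 20 to 300 TPM in the other 5 (grey). The green bar is above the grey one in each library, and is lowest in EST 1 at 43.2%.

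Every member shared some reads with other entries in at least 1 library. Tobacco carries a pair of related parental genomes, so near-identical copies are common, and an estimate that is not a whole number shows that reads were divided between entries. None of the 107 members had estimates within 0.0015 of a whole number in every library, against 93 of 3787 gene models (2.46%) in the window. For 77 members (72.0%) no library had a whole-number estimate, against 59.1% of the window. The other 30 members had a whole-number estimate in at least 1 library, and the number of reads divided was not measured. How far shared reads moved a member's level was not tested.

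Few members shared a scaffold number, which gives no position in the genome, and no share over the window is given beside it. By the scaffold number in their identifiers they lay on 105 scaffolds, and only 2 scaffolds held 2 members each: Nitab4.5_0000519g0080.1 with Nitab4.5_0000519g0340.1, and Nitab4.5_0001059g0050.1 with Nitab4.5_0001059g0190.1. A length divisible by 3, as a coding sequence without untranslated ends has, was found for 49 members (45.8%), against 52.5% of the window and 83.7% of all gene models.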

How the data were processed

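Total RNA of 6 BY-2 libraries was sequenced. Per the submitters' processing notes, Trimmomatic trimmed the reads and Salmon 1.3.0 quantified them; its options and the genome build: not given in the sources used here. The files deposited by the authors give an estimated count of reads, not normalized, a TPM value with the same sum in every library, and an effective length in bases that differs between libraries, per the file headers, so TPM moves with that length. Here the rule was applied to TPM in Python 3.11.15. Estimated counts were rounded and kept by filterByExpr (minimum count 10, total 15) in edgeR 4.0.16 (R 4.3.3), scaled by TMM and tested over 33956 entries with the quasi-likelihood test, robust dispersion and Benjamini-Hochberg adjustment, with company as a covariate (EST 1 against the DMSO libraries) and without (all 3 EST libraries against them). DESeq2 1.42.0 was an alternative. The tests were tried on simulated data.

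Members and lists were chosen with earlier results of these data known. Named were the 6 members of lowest ratio, the 3 highest and 3 lowest in mean TPM, the longest, the shortest, and 2 on each side of the limit; a further rule, for members with whole-number estimates throughout, found none. The labels call the libraries biological replicates but do not say that cultures were separate, so a p-value may in part reflect technical spread. Deviations of log2 CPM (prior count 2) from the group means correlated at 0.39, 0.13 and 0.33 between EST and DMSO libraries of replicate 1, 2 and 3. All are over the criterion of 0.1, so a fit with the replicate number as block was added. DMSO 2 and 3 lay close together, and whether they are independent of each other was not tested.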

Additional observations from a re-analysis of the deposited data

How the results depend on the processing

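The number of steady gene models moved with the ratio limit and the libraries used. It was 48 at a limit of 1.2, 651 at 1.5 and 176 with 10 TPM as the lower bound, and 0 with whole-number estimates only. Leaving out 1 library gave between 134 (DMSO 2) and 400 (EST 1). It was 104 to 118 with no upper bound, TMM factors, DESeq2 size factors, CPM in the ratio or a pseudocount of 1 TPM. Similar counts did not mean the same gene models. Of the 104 on CPM only 36 were among the 107, and of the 118 with TMM factors 89 were. All 107 stayed with no upper bound or with the pseudocount. The number was 133 with the mean of DMSO 2 and 3 as 1 library, an alternative chosen after seeing the data. Calls among the 107 members stayed at 0 in edgeR or DESeq2 under every alternative that kept all 6 libraries, and ranged over the fits that leave out 1 library from 0 to 14 with company as a covariate, from 0 to 2 pooled and from 0 to 8 for company. They were also 0 with the Novogene libraries alone, where 16.6% of entries were called, and with DMSO 2 and 3 summed, where 7.74% were called with company as a covariate, 1.12% for company and 1 entry of 35818 pooled, so that the pooled 0 says nothing about the members. With the replicate block 0 members were called, pooled and with company. Over all entries the replicate block gave 7566 calls pooled, against 3770 without it; DESeq2 gave 7109 pooled and 4084 for company, where edgeR gave 3770 and 1410, and for company edgeR gave 3057 with no further filter and 2172 with the effective length offset. Leaving out 1 library moved these counts from 2652 to 16467 with company as a covariate, from 0 to 6771 pooled and from 0 to 8568 for company. Fits without EST 1 that keep company could not be fitted, as no induced Novogene library is left. The pooled log2 change of AtPIN5 fell short of the threshold with DMSO 2 and 3 summed (7.23, adjusted p = 0.0729, chosen after seeing the data), and over the fits leaving out 1 library it ran from 6.09 to 8.09. The median length (1296 bases for the members) ran from 1176.5 bases for the gene models chosen without EST 1 to 1404 bases at a limit of 1.2. The median held-out share (79.3% within 1.25-fold of the mean) was 69.3% at a limit of 1.2 and 94.1% at 1.5, each read within its own limit. Members under 200 reads are limited by counting error.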
